A study of Homo sapiens with 38 samples.

Results

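The genes of glycolysis, the pentose phosphate pathway and pyruvate handling were followed while naive human pluripotent stem cells (hPSCs) left the naive state. The set held 37 genes of the 57133 in the count table, taken by symbol from the pathway: the hexokinases HK1 and HK2, GPI, the phosphofructokinases, the PFKFB enzymes of fructose bisphosphate, the steps from aldolase to pyruvate kinase, the lactate dehydrogenases, pyruvate dehydrogenase with its kinases, 6 pentose phosphate enzymes, PC and PCK2. Shef6, an established human embryonic stem cell line that had been adapted to serum coating, as in all 38 libraries, was kept naive in PXGL (N2B27 basal medium with LIF and inhibitors of MEK, tankyrase and PKC). It was then plated on Geltrex, a basement membrane extract, for capacitation, in which naive cells become competent to form the germ layers. In experiment 1 (Ex1), naive cells from serum coating and from Geltrex were sequenced beside cells taken after 2, 3, 4, 6 and 8 days in plain N2B27 or in E8, and after 4, 6 and 8 days in mTeSR. E8 and mTeSR are media for primed hPSCs. In experiment 2 (Ex2), naive cells on Geltrex were sequenced beside cells taken at day 4 in N2B27, in N2B27 to which XAV939, an inhibitor of tankyrase, was added (XAV), or in N2B27 that also held FGF2 and Activin A beside XAV939 (FAX). Each of these 19 groups had 2 libraries. The naive libraries of both experiments were pooled to 6, and those of N2B27 at day 4 to 4, for the comparisons against naive cells. All libraries came from 1 cell line, and the labels do not say that the libraries of a group were separate cultures. The paper calls them technical replicates in some legends and biological replicates in another. The p-values thus measure the spread between libraries, which may be technical.

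Glycolysis splits glucose to pyruvate in the cytosol. Pyruvate is then reduced to lactate by lactate dehydrogenase, or enters the mitochondrion and is oxidised by the pyruvate dehydrogenase complex, which the PDK kinases switch off by phosphorylation. The pentose phosphate pathway branches off at glucose 6-phosphate and supplies NADPH and ribose. Naive hPSCs are known to use both glycolysis and respiration, and primed hPSCs to lean on glycolysis. Several genes of the set are textbook targets of the hypoxia-inducible factors and of MYC, which bind sites that share the letters ACGTG.

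The promoters of 5 of the 8 genes called higher from day 4 to day 8 in mTeSR are shown. ENO2 and PDK3 are also among the 8, and their windows, with 1 and 2 matches of the kind marked here, are not printed. RefSeq windows of 250 bases directly before a transcription start (GRCh38.p14) were read where that start lay within 50 bases of the gene's MANE Select start in GENCODE 44, which gave 30 of the 37 genes and 14487 genes in all. Capitals mark ACGTG and GCGTG on either strand (CACGT and CACGC are their complements), and overlapping matches run together.
PDK1 (chr2:172555840-172556089, plus strand): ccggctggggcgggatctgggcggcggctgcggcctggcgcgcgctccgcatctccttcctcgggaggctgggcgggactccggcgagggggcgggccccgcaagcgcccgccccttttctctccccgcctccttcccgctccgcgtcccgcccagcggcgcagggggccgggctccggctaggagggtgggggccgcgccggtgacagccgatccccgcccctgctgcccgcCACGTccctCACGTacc
LDHA (chr11:18394313-18394562, plus strand): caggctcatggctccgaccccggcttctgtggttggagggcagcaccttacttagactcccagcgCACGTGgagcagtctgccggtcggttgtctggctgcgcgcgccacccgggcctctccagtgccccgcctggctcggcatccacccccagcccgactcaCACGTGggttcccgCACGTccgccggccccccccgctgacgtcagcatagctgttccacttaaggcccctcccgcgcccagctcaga
PGK1 (chrX:78103998-78104247, plus strand): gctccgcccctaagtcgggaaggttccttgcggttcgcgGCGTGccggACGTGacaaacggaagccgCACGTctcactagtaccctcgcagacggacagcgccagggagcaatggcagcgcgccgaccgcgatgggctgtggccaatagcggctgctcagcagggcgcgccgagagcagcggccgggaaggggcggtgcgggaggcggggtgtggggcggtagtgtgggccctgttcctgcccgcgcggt
ALDOC (chr17:28576896-28577145, minus strand): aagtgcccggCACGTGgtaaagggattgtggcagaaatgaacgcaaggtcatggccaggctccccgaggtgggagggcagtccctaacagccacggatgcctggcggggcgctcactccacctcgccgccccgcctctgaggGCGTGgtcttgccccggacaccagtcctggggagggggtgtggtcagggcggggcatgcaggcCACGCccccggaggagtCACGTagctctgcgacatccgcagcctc
PFKFB4 (chr3:48556804-48557053, minus strand): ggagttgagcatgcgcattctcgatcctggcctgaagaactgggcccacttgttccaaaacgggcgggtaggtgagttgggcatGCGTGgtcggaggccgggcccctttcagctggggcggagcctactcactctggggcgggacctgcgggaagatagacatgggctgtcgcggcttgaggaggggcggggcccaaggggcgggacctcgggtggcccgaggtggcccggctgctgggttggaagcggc

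The measurement was 3′ tag RNA sequencing (QuantSeq), which reads a short stretch near the end of each transcript, so a level was compared between libraries for each gene and not between genes. Library totals ran from 3038046 to 5612354 counts with a median of 4427277. Levels are CPM, counts scaled to the TMM-adjusted size of each library, and 3 counts, taken as the floor of detection, stood for 0.520 to 1.06 CPM, a limit that covers counting error only. Of the 37 genes, 35 passed the filter on low counts. PFKFB1, the liver and muscle isoform, had at most 1 count in any library, and PDK4, the starvation-induced kinase, had at most 5, and neither was tested. Changes are log2 fold changes from an edgeR quasi-likelihood fit of all 16674 genes that passed the filter, with the standard error (SE) and a Benjamini-Hochberg adjusted p. A gene passed when the adjusted p was below 0.05, and it was called when its log2 fold change also exceeded 1 in size. Other genes on the same strand lie within 500 bases of the 3′ ends of GPI, PFKP, ALDOA, ALDOC and LDHB, so their counts are uncertain to that extent. The summed level of 9 naive markers was 1512 to 2072 CPM in naive cells and 628 to 757 CPM at day 8 over the 3 media, and that of 8 primed or formative markers was 42.7 to 53.7 CPM and 963 to 1140.3 CPM. In bulk libraries, fewer cells of a type and less RNA per cell cannot be told apart.

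Together, the 37 genes took 0.707% ± 0.0817 (SD, n = 6) of all counts in naive cells. The share was 0.901% ± 0.00131 (SD, n = 2) at day 8 in N2B27, 0.909% ± 0.0185 in E8 and 1.26% ± 0.0256 in mTeSR, the last being the highest of the 16 combinations of medium and day. Against naive cells, 6 genes were called higher and 1 lower at day 8 in N2B27, where 16.9% of all genes tested were called higher and 7.03% lower. In E8 the counts were 5 higher and 2 lower, against 18.2% and 9.24% of all genes. In mTeSR, 12 were called higher and 1 lower, against 16.9% and 8.2%. The shares of the set in N2B27 and E8 were thus near the background. The median log2 fold change of the 35 genes was 0.12, 0.13 and 0.67 in the 3 media, beside medians of -0.03, 0.00 and -0.02 over all genes. At days 2, 3, 4, 6 and 8 in N2B27, 16.2%, 15.6%, 18.4%, 23.1% and 23.9% of all genes were called in either direction and 35.3%, 33.2%, 42.4%, 44.7% and 45.1% passed. In E8 24.6%, 17.8%, 20.8%, 23.3% and 27.5% were called and 47.2%, 35.3%, 40.5%, 42.3% and 49.9% passed, and in mTeSR at days 4, 6 and 8 19.8%, 22.5% and 25.1% were called and 38%, 42.1% and 45.4% passed. At day 4, 17% were called and 33.4% passed in XAV, and 17.1% and 34.1% in FAX. These shares are the background for a call or a pass in 1 comparison. The 15 comparisons share the 6 naive libraries and 1 fit, so a count over them is not one of independent results. The share of all genes called or passing in as many of the 15 was not counted. The counts of genes called at day 8 also moved with the naive libraries: 11 genes were called in N2B27 against the naive libraries of Ex1 alone, and 11 in E8 against those on serum coating alone, in place of 7 and 7, where 25.5% and 28.9% of all genes were then called.

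**Figure D1:**
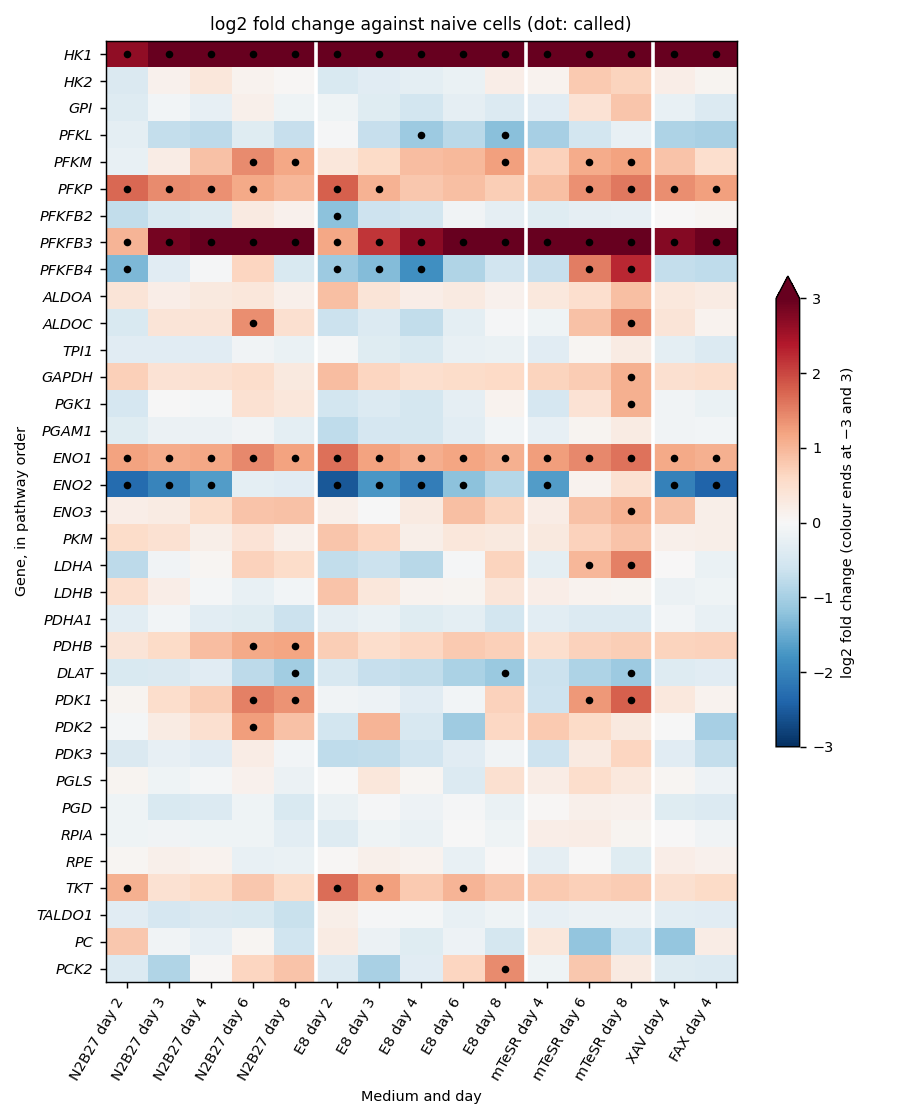
Change of each of 35 genes (vertical axis, in pathway order) relative to naive cells, on the log2 scale, in 15 combinations of medium and day (horizontal axis), from blue (lower) to red (higher), with a dot where a gene was called. HK1, PFKFB3 and ENO1 are red with a dot in every column, though at day 4 of Ex2 ENO1 was not called against the naive libraries of Ex2 alone (0.75 to 0.84), ENO2 is bluest at the early days, and mTeSR at day 8 holds the most dots (13).

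Hexokinases trap glucose in the cell as glucose 6-phosphate, HK1 being the constitutive and HK2 the inducible form. HK1 (chr10:69269984-69401884, plus strand) rose in every medium and at every day. The 6 naive libraries ranged from 18.4 to 27.1 CPM with a median of 22.3. Already at day 2 the N2B27 libraries held 117 and 167 CPM and the E8 libraries 195 and 223 CPM. At day 8 HK1 stood at 252 and 229.9 CPM in N2B27, 285 and 271 CPM in E8, and 354 and 431 CPM in mTeSR. No library after exit overlapped the naive ones, and the gene was called higher in 15 of 15 comparisons, with log2 fold changes of 2.66 to 4.13. HK2 (chr2:74834127-74893359, plus strand) did not follow this course. It ranged from 91.2 to 118 CPM in naive cells, and stood at day 8 at 104 and 115 CPM in N2B27, 133 and 110.0 CPM in E8 and 152 and 187 CPM in mTeSR. HK2 was called in 0 of the 15 comparisons and passed, without being called, in mTeSR at day 6 (log2 fold change 0.80) and day 8 (0.67).

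GPI (chr19:34359480-34402413, plus strand) turns glucose 6-phosphate into fructose 6-phosphate. It held 239.9 to 362 CPM in naive cells with a median of 276. At day 8 it stood at 267 and 262 CPM in N2B27, 188 and 247 CPM in E8, and 476 and 549.6 CPM in mTeSR. The mTeSR libraries lay above all naive libraries, and their log2 fold change of 0.83 passed, as did that of day 6 (0.43). GPI passed lower in 5 of the 15 comparisons, N2B27 at day 2 (-0.38), E8 at days 3, 4 and 8 (-0.37, -0.54 and -0.41) and FAX at day 4 (-0.41).

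The 3 phosphofructokinases catalyse the committed step and are named for platelet (PFKP), liver (PFKL) and muscle (PFKM). They moved apart. PFKP (chr10:3066333-3137718, plus strand) rose from 7.17 to 14.6 CPM in naive cells to 36.2 and 45.3 CPM at day 2 in N2B27 and 43.2 and 42.7 CPM in E8, and was called higher in 10 of 15 comparisons. At day 8 it held 23.1 and 25.5 CPM in N2B27, 22.5 and 18.1 CPM in E8 and 35.8 and 37.8 CPM in mTeSR. PFKL (chr21:44300051-44327376, plus strand) went the other way and passed lower in 11 of 15 comparisons. Its naive libraries held 98.3 to 145 CPM, and at day 8 it stood at 77.5 and 80.7 CPM in N2B27, 49.8 and 56.7 CPM in E8, and 102 and 117 CPM in mTeSR. PFKL was called lower in E8 at days 4 and 8, with log2 fold changes of -1.10 and -1.26, and passed lower in N2B27 at day 8 (-0.68). PFKM (chr12:48105139-48146404, plus strand) passed higher in 9 of 15 comparisons, at no point before day 4 and, in N2B27 and E8, at days 4, 6 and 8. It held 6.80 and 4.51 CPM at day 2 and 12.8 and 15.4 CPM at day 4 in N2B27 of Ex1. Its 4.69 to 9.90 CPM in naive cells became 15.2 and 14.8 CPM at day 8 in N2B27, 19.1 and 12.01 CPM in E8 and 12.5 and 18.7 CPM in mTeSR, with log2 fold changes of 1.16, 1.22 and 1.22 that were all called. In E8 it did not pass without replicate 1 (0.82), nor in mTeSR without replicate 2 (0.89).

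The PFKFB enzymes make and break fructose 2,6-bisphosphate, a strong activator of phosphofructokinase. PFKFB3 (chr10:6144934-6254644, plus strand), whose kinase activity far exceeds its phosphatase activity, was called higher in 15 of 15 comparisons. In naive cells it ranged from 1.71 to 8.98 CPM, the lowest pair being that of Ex2. In N2B27 of Ex1 it climbed from 15.01 and 12.1 CPM at day 2 to 40.1 and 56.7 CPM at day 3 and 80.9 and 79.4 CPM at day 4. In E8 it was 24.4 and 34.3 CPM at day 3 and 43.9 and 43.98 CPM at day 4, and it passed lower than in N2B27 of Ex1 on both days (-0.72 and -0.87 on the log2 scale). It did not pass at day 3 without N2B27 day 3 replicate 2 (-0.45) or without E8 day 3 replicate 1 (-0.51), nor at day 4 against the N2B27 libraries of Ex2 (-0.41), which held 57.8 and 58.5 CPM. At day 8 it held 56.8 and 58.7 CPM in N2B27, 56.01 and 60.7 CPM in E8 and 77.4 and 83.4 CPM in mTeSR, and the log2 fold changes against naive cells were 3.11, 3.13 and 3.59.

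PFKFB4 (chr3:48517684-48562015, minus strand), an isoform known from testis and from hypoxic cells, held 5.98 to 11.5 CPM in naive cells. It stood at 4.20 and 2.61 CPM at day 2 in N2B27 and at 1.67 and 3.16 CPM at day 4 in E8, both called lower, as it was in E8 at days 2 and 3. In mTeSR it went from 6.12 and 4.84 CPM at day 4 to 21.5 and 29.7 CPM at day 6 and 38.5 and 45.9 CPM at day 8, the last pair lying above every other library. At day 8 its log2 fold change against naive cells was 2.26 in mTeSR (SE 0.24), while -0.45 in N2B27 and -0.58 in E8 did not pass. PFKFB2, the heart isoform, was called lower in E8 at day 2, with a log2 fold change of -1.24, and at no other point.

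**Figure D2:**
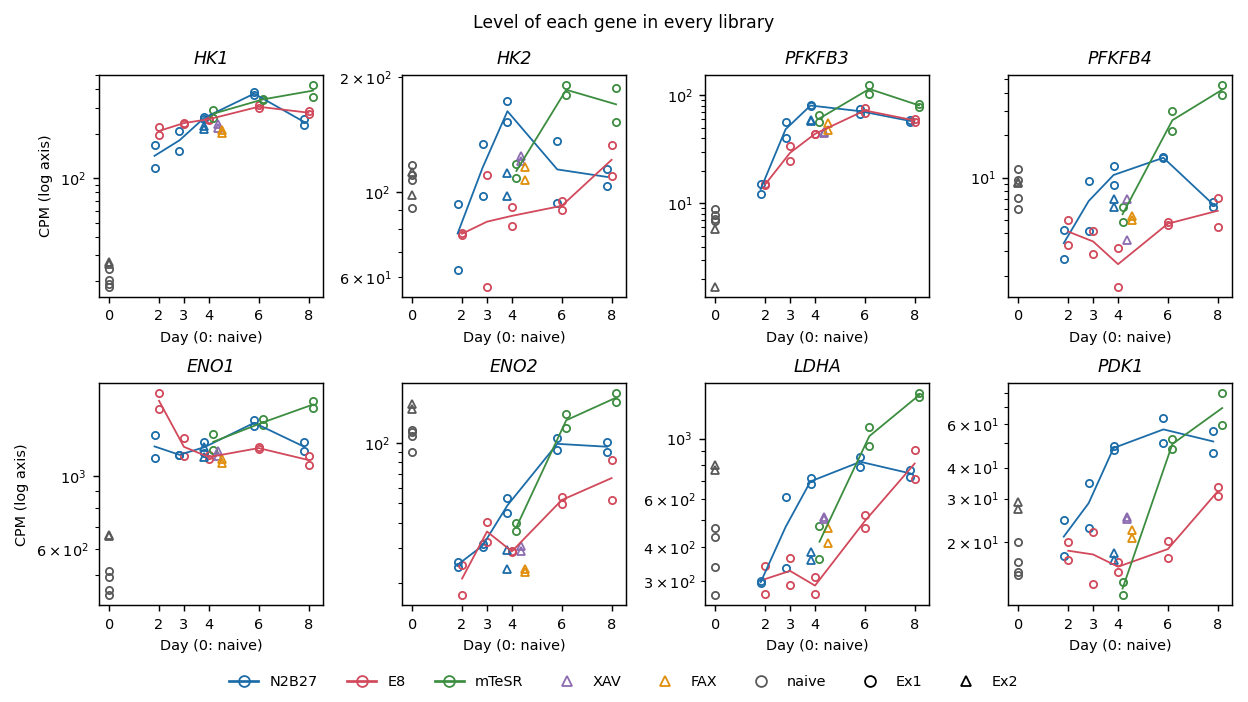
Level in CPM (vertical, log axis) of 8 genes in each library (circles Ex1, triangles Ex2) against the day (horizontal, 0 being naive cells), with lines through the means of the Ex1 libraries of a medium. HK1 and PFKFB3 leave the naive range by day 2 in both media sampled, ENO2 dips and then climbs, and PFKFB4 and LDHA are highest in mTeSR at day 8.

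Among the enzymes from aldolase to pyruvate kinase, ALDOA, TPI1, PGAM1 and PKM, which code for aldolase A, triose phosphate isomerase, phosphoglycerate mutase and pyruvate kinase M, were called in 0 of the 15 comparisons. ALDOA passed higher in 8 and PKM in 7, PGAM1 passed lower in 6, and TPI1 passed lower in 8 and higher in 1. PKM held 212 and 379 CPM in N2B27 at day 2 and 410 and 222 CPM in E8 at day 3. ALDOA held 402 and 556 CPM and 497 and 449 CPM there. In these pairs the library with the lower library score (described with TKT) was the higher. ALDOA went the other way in N2B27 at day 3 (385 and 449 CPM). The part of the score in the counts of passes was not tested. Pseudogene rows held 4.72% of the counts of PGAM1 and its copies. GAPDH, which makes the NADH of glycolysis, held 569 to 940.2 CPM in naive cells and 1551 and 1559.8 CPM at day 8 in mTeSR, where it was called higher (log2 fold change 1.06). PGK1, phosphoglycerate kinase, makes the first ATP of the pathway and ranged from 363 to 641 CPM in naive cells. It stood at 652 and 620.5 CPM at day 8 in N2B27, 526 and 564 CPM in E8 and 1077 and 1034 CPM in mTeSR, where its log2 fold change of 1.06 was called. It passed lower in 5 of the 15 comparisons, all at days 2 to 4, with log2 fold changes down to -0.54, and higher in 4 at days 6 and 8.

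ALDOC (chr17:28573115-28576948, minus strand), the brain aldolase, differed between the naive libraries. Those on serum coating held 8.19 and 9.17 CPM, those on Geltrex 14.8 and 14.6 CPM in Ex1 and 35.2 and 41.8 CPM in Ex2. At day 6 in N2B27 it reached 48.6 and 55.6 CPM and at day 8 in mTeSR 52.7 and 50.6 CPM, both called higher, with log2 fold changes of 1.39 and 1.38. In E8 at day 8 it stood at 20.4 and 18.1 CPM, between the naive libraries of the 2 experiments. Against the 4 naive libraries of Ex1 alone its log2 fold change there was 0.73, and against all 6 it was -0.04.

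The enolases, which make phosphoenolpyruvate, moved in opposite directions at the early days, ENO1 higher and ENO2 lower. ENO1 (chr1:8861000-8879190, minus strand), the ubiquitous form, rose from 434 to 664 CPM in naive cells to 1130.2 and 1328 CPM at day 2 in N2B27 and 1601 and 1781 CPM in E8. At day 8 it held 1264 and 1190.4 CPM in N2B27, 1153 and 1082 CPM in E8 and 1607 and 1688 CPM in mTeSR. No library after exit overlapped the naive ones, and ENO1 was called higher in 15 of 15 comparisons with the pooled naive libraries, with log2 fold changes of 1.05 to 1.66. In E8 at day 8 it passed without being called when replicate 1 was left out (just under 1). The naive libraries of Ex2, at 664 and 655 CPM, were the highest of the 6. Against these alone, the Ex2 libraries of day 4 passed but were not called, with log2 fold changes of 0.84 in N2B27, 0.83 in XAV and 0.75 in FAX. ENO2 (chr12:6913745-6923698, plus strand), the neuronal form, fell within 2 days from 90.3 to 156 CPM to 24.01 and 25.4 CPM in N2B27 and 24.8 and 17.4 CPM in E8. The log2 fold changes at day 2 were -2.30 in N2B27 (SE 0.23) and -2.53 in E8 (SE 0.25). At day 8 ENO2 stood at 101 and 90.3 CPM in N2B27, 81.9 and 51.8 CPM in E8 and 159.9 and 177 CPM in mTeSR. Against naive cells it then passed lower in E8 (-0.86, SE 0.20), where both libraries lay below all naive ones and it was called without replicate 1 (-1.25), and higher in mTeSR (0.47, SE 0.19), where both lay above, and it did not pass in N2B27 (-0.35, SE 0.20). From day 2 to day 8 the log2 fold change was 1.95 in N2B27 (SE 0.17, adjusted p = 6.0e-11) and 1.68 in E8 (SE 0.19, adjusted p = 1.4e-08) by edgeR's quasi-likelihood test, and both were called. ENO3, the muscle form, lay between 1.20 and 7.56 CPM over all libraries and was called in mTeSR at day 8 (log2 fold change 1.05).

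LDHA (chr11:18394560-18408425, plus strand) codes for the subunit that favours lactate formation. Its naive libraries held 265 and 338 CPM on serum coating, 468 and 435 CPM on Geltrex in Ex1 and 766 and 797 CPM in Ex2, the Ex2 pair being the highest. At day 2 LDHA stood at 294 and 299 CPM in N2B27 and 269 and 340.0 CPM in E8. By day 8 it had reached 768 and 723 CPM in N2B27, 907 and 712 CPM in E8 and 1467 and 1424 CPM in mTeSR. From day 2 to day 8 LDHA rose by 1.33 in N2B27 (SE 0.17) and 1.41 in E8 (SE 0.18) on the log2 scale, both called. In these comparisons 7 genes of the set were called in N2B27 (6 by DESeq2) and 6 in E8, where 21.9% and 28.2% of all genes were called. Against the 6 naive libraries LDHA was called in mTeSR at days 6 and 8, with log2 fold changes of 1.00 and 1.50. It passed lower at day 2 in N2B27 (-0.78) and at days 2 and 4 in E8 (-0.74 and -0.82), and higher at day 6 in N2B27 (0.69) and day 8 in E8 (0.67). Against the naive libraries of Ex1 alone it was called at day 8 in N2B27 (1.00) and E8 (1.12) as well. LDHB, the heart subunit that favours pyruvate formation, held 1217 and 1196 CPM at day 2 in E8, above the 549 to 753 CPM of naive cells. It passed there with a log2 fold change of 0.85 and was called in 0 of the 15 comparisons. Its level also differed between libraries of 1 group, at 867 and 1043 CPM in N2B27 at day 2 and 962 and 745 CPM in E8 at day 3. In each of these 2 pairs it was higher in the library with the lower library score (described with TKT). E8 at day 8 went the other way, with 977 and 733 CPM at scores of 1.42 and 0.47. With that score as a covariate the log2 fold change in E8 at day 2 was 0.56 (SE 0.14), which still passed.

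The subunits of pyruvate dehydrogenase, which feeds acetyl-CoA to the citric acid cycle, diverged. DLAT (chr11:112025408-112064404, plus strand), the E2 core, passed lower in 15 of 15 comparisons. From 122 to 141 CPM in naive cells it went to 65.4 and 65.2 CPM at day 8 in N2B27, 60.7 and 63.8 CPM in E8 and 60.8 and 65.8 CPM in mTeSR, without overlap. The log2 fold changes at day 8 were -1.05, -1.12 and -1.10, all called lower, though with library totals in place of TMM that of N2B27 was -0.98 and only passed. PDHA1, the E1 alpha subunit, passed lower at day 8 as well, with log2 fold changes of -0.64, -0.55 and -0.41. PDHB, the E1 beta subunit, passed higher in 15 of 15 comparisons and was called in N2B27 at days 6 and 8, with log2 fold changes of 1.14 and 1.18. It stood at 299 and 299 CPM at day 8 in N2B27 beside 122 to 145 CPM in naive cells.

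PDK1 (chr2:172555373-172608669, plus strand) is a kinase that inactivates the complex. It held 14.8 and 16.6 CPM in naive cells on serum coating, 19.98 and 15.2 CPM on Geltrex in Ex1 and 29.03 and 27.1 CPM in Ex2. In N2B27 of Ex1 it reached 47.1 and 48.7 CPM at day 4 and 56.2 and 45.7 CPM at day 8. In E8 it held 16.7 and 15.2 CPM at day 4, within the naive range, and 33.5 and 30.6 CPM at day 8, above it. In mTeSR it went from 12.2 and 13.8 CPM at day 4 to 47.6 and 51.9 CPM at day 6 and 79.5 and 59.3 CPM at day 8. Against naive cells the log2 fold changes at day 8 were 1.34 in N2B27 (SE 0.27) and 1.79 in mTeSR (SE 0.27), both called, and 0.68 in E8 (SE 0.28), which passed. PDK3, the kinase with the highest known activity, lay between 9.99 and 33.3 CPM over all libraries and was called in 0 of the 15 comparisons, passing lower in 5 and higher in 1. PDK2 had at most 15 counts in any library. It was called higher in N2B27 at day 6 against naive cells, and lower in E8 than in N2B27 on that day, where 1 and 3 counts stood against 9 and 15.

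In the pentose phosphate pathway, TKT (chr3:53224712-53256052, minus strand), the transketolase that links the branch back to glycolysis, was the 1 gene called. It was called higher in 4 of 15 comparisons, N2B27 at day 2 and E8 at days 2, 3 and 6. Its naive libraries held 418 to 646 CPM. At day 2 TKT stood at 819 and 1422 CPM in N2B27 and at 1732 and 1669 CPM in E8, with log2 fold changes of 1.06 and 1.66, both called. These levels moved with a library score, the leading direction along which the 2 libraries of a group differed over all well-measured genes, scaled to an SD of 1 over the 38 libraries. The 4 lowest scores were those of N2B27 day 2 replicate 2 (-2.72), E8 day 2 replicates 1 and 2 (-2.55 and -2.56) and E8 day 3 replicate 1 (-2.29), and TKT stood at 1422, 1732, 1669 and 1619 CPM in these. In the other libraries of these groups, N2B27 day 2 replicate 1 (score -0.56) and E8 day 3 replicate 2 (0.62), TKT stood at 819 and 886 CPM. In N2B27 at day 2 the call was lost without replicate 2, where replicate 1 stood alone and was assumed to vary like the other groups (0.61) and with the score as a covariate (0.58), though both passed, and in E8 it was kept with the score as a covariate (1.02 on the log2 scale). In E8 at day 6, where the scores were 0.50 and 0.31, TKT held 1063 and 1119 CPM. At day 8 it held 797 and 809.6 CPM in N2B27, 789.8 and 1159.6 CPM in E8 and 883 and 940.2 CPM in mTeSR, and passed in each with log2 fold changes of 0.58, 0.86 and 0.76. TALDO1, the transaldolase, passed lower than in naive cells at all 5 days in N2B27, reaching -0.66 at day 8, and did not pass at any day in E8 or mTeSR. PGLS, PGD, RPIA and RPE, which code for the lactonase, the 6-phosphogluconate dehydrogenase, the isomerase and the epimerase, were called at no point, and their log2 fold changes against naive cells ran from -0.45 to 0.53.

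PCK2 (chr14:24094053-24110598, plus strand) turns mitochondrial oxaloacetate into phosphoenolpyruvate. It held 25.01 and 24.2 CPM in naive cells on serum coating, 31.2 and 30.3 CPM on Geltrex in Ex1 and 51.9 and 58.1 CPM in Ex2. At day 8 it stood at 60.1 and 70.8 CPM in N2B27, 117 and 76.8 CPM in E8 and 49.4 and 37.8 CPM in mTeSR. It was called higher in E8 at day 8 (log2 fold change 1.42, SE 0.22), where both libraries lay above all naive ones. It passed lower at day 3 in N2B27 (-0.90) and E8 (-0.97), and higher at days 6 and 8 in N2B27 (0.64 and 0.86) and at day 6 in E8 and mTeSR. In N2B27 at day 8 it was called without naive Geltrex Ex2 replicate 2 (1.06). PC, pyruvate carboxylase, lay between 0.797 and 5.46 CPM over all libraries, with 7.05% of the counts of PC and its copies on pseudogene rows. It did not pass against naive cells at any point.

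E8 and N2B27 were compared at equal days within Ex1. At days 2 and 3, 0 genes were called by edgeR's quasi-likelihood test or by DESeq2, where 4.55% and 1.68% of all genes were called, while 8 and 6 genes passed, beside 13.7% and 6.06% of all genes, and 9 and 16 had an unadjusted p under 0.05. At day 2, 7 of the 8 were higher in E8, among them TKT (0.60), HK1 (0.57), TALDO1 (0.52) and ENO1 (0.46 on the log2 scale). Both E8 libraries and N2B27 replicate 2 of that day were among the 4 with the lowest library score, and N2B27 replicate 1 was not. Where 1 library of a group was left out, the other stood alone and was assumed to vary like the other groups. In that way, without N2B27 day 2 replicate 1, 2 genes passed, beside 4.59% of all genes, and TALDO1 (0.45) did while TKT (0.25), HK1 (0.32) and ENO1 (0.34) did not. Without E8 day 2 replicate 1 or 2, 5 and 2 genes passed, beside 7.98% and 4.58% of all genes. Without N2B27 day 2 replicate 2, 11 passed, beside 14%, and TKT was called (1.06), as were 5.68% of all genes. With the score as a covariate 7 passed at day 2, these 4 genes among them, beside 14.3% of all genes, and 10 at day 3, beside 8.45%. At day 3, 2 passed without E8 replicate 1 and 10 without replicate 2, beside 2.67% and 7.13% of all genes. At day 4, 4 genes were called lower in E8, where 1.13% of all genes were called lower. PDK1 stood at 16.7 and 15.2 CPM in E8 and 47.1 and 48.7 CPM in N2B27, a log2 fold change of -1.59 (SE 0.20, adjusted p = 3.0e-06 by edgeR). LDHA stood at 267 and 309 CPM against 678 and 714 CPM (-1.27, SE 0.17). ALDOC stood at 10.7 and 13.02 CPM against 25.7 and 32.1 CPM (-1.28), and PFKFB4 at 1.67 and 3.16 CPM against 8.84 and 12.004 CPM (-2.09, SE 0.38). These pairs did not overlap, a further 7 genes passed lower, and TALDO1 passed higher, where 7.93% of all genes passed. At day 6 PDK1 (-1.60), ALDOC (-1.69), PFKFB4 (-1.56) and PDK2 (-2.32) were called lower in E8, beside 2.97% of all genes, and DESeq2 called the first 3 of these. At day 8, 0 genes were called by edgeR or DESeq2, beside 7.29% of all genes, and 12 had an unadjusted p under 0.05. TALDO1, LDHB and PCK2 passed higher and PFKL, ENO2, PDHB and PDK1 lower in E8, where 19.3% of all genes passed. Without N2B27 day 8 replicate 2, 1 gene was called, PGLS, beside 6% of all genes, and it had 14 counts in the N2B27 library kept, 34 in the one left out, and 45 and 27 in E8.

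For mTeSR at day 4, PDK1 was called lower than in N2B27 (-1.88, SE 0.21), where 0.768% of all genes were called lower. Of the set, 1 gene passed higher and 6 lower there, and 18 had an unadjusted p under 0.05. The share of all genes that passed there is not given. Against the N2B27 libraries of Ex2 the PDK1 call was lost (-0.43, SE 0.24) and 0 genes passed by edgeR's quasi-likelihood test. In that exchange 1.05% of all genes were called and 2.59% passed, and 8 of the set had an unadjusted p under 0.05. Between mTeSR and E8 at day 4, 0 genes passed by edgeR or DESeq2, where 0.084% of all genes were called and 0.222% passed, and 8 of the set had an unadjusted p under 0.05. The 95% interval of that difference lay within 1 either way for 30 of the 35 genes. At day 6, 0 genes were called between mTeSR and N2B27 by either tool, beside 2.62% of all genes, and 13 had an unadjusted p under 0.05. On the same day 6 genes were called higher in mTeSR than in E8, beside 0.63% of all genes: PFKFB4 (2.44), PDK1 (1.41), ENO2 (1.32), ALDOC (1.19), LDHA (1.04) and HK2 (1.00). DESeq2 called these but for HK2.

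At day 8, mTeSR held most of the set at higher levels than N2B27 did. Of the 35 genes 19 passed higher and PDHB passed lower, while 5.68% of all genes passed higher and 5.22% lower. Of the 10 genes from aldolase to pyruvate kinase 9 passed higher, led by ALDOC (0.90), ENO2 (0.81) and GAPDH (0.76), and so did LDHA (0.96) and GPI (0.96). Only PFKFB4 was called, with 38.5 and 45.9 CPM against 6.17 and 6.68 CPM (log2 fold change 2.71, SE 0.29), where 1.65% of all genes were called higher, and without mTeSR day 8 replicate 1 GPI was called as well, beside 1.23%. Against E8 at day 8, 6 genes were called higher in mTeSR, beside 2.51% of all genes: PFKFB4 (2.83), ALDOC (1.42), ENO2 (1.32), GPI (1.24), PDK1 (1.11) and PFKL (1.04). PCK2 was called lower (-1.15, SE 0.20), beside 2.79% of all genes. The calls of PFKL and PCK2 were lost without E8 day 8 replicate 1 (0.96 and -0.80) or mTeSR replicate 2 (0.94 and -0.98), and that of PDK1 without mTeSR replicate 1 (0.87), while LDHA was called without E8 replicate 1 (1.03).

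**Figure D3:**
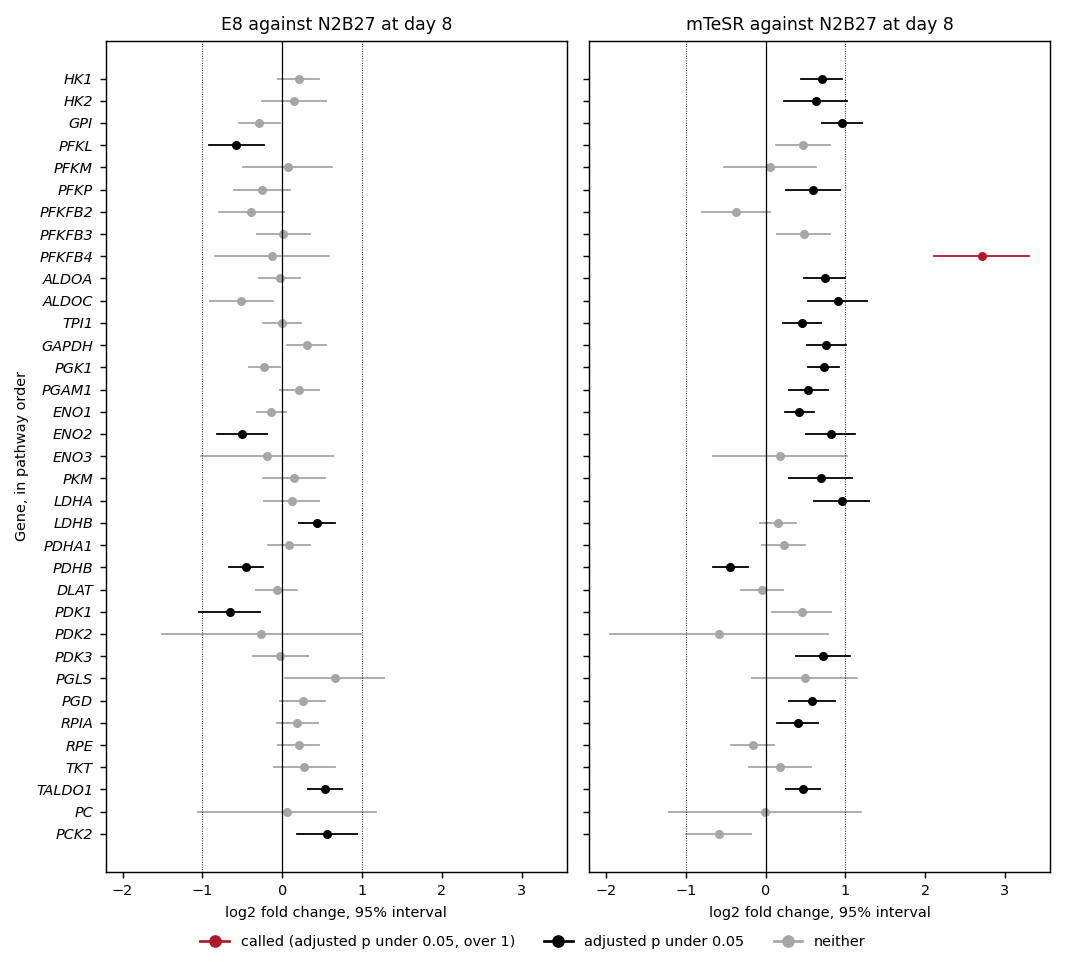
Log2 fold change (horizontal) with its 95% interval for the 35 genes tested (vertical, in pathway order) in E8 against N2B27 (left) and mTeSR against N2B27 (right) at day 8 in Ex1, with 2 libraries a group. The left panel scatters around 0, and in the right panel 19 genes passed above 0, PFKFB4 being the farthest at 2.71.

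Markers of germ layers and of extraembryonic cells were set side by side at day 8, without a test between media. The summed level of 5 endoderm markers was 152 to 171 CPM in N2B27, 82.3 to 85.2 CPM in mTeSR and 18.1 to 22.7 CPM in E8, beside 0.683 to 4.21 CPM in naive cells. For 3 mesoderm markers it was 217 to 285 CPM in N2B27, 146 to 192 CPM in mTeSR and 35.2 to 37.9 CPM in E8, beside 2.73 to 21.8 CPM in naive cells. None of these markers was at the floor at day 8. N2B27 was highest in both lists, and mTeSR in PFKFB4, PGK1 and LDHA. The summed level of 6 fibroblast markers was 1.97 to 4.44 CPM in naive cells and 193 to 239.8 CPM at day 8 over the 3 media, with 1 of the 6 at or under the floor in N2B27 and 3 in E8 and in mTeSR. One of the 6, THY1, is also among the 8 primed or formative markers. Without it the sum at day 8 was 162 to 172 CPM in N2B27, 100.2 to 102 CPM in E8 and 132 to 149 CPM in mTeSR, nearly all of it from COL1A1 and COL1A2, while LUM and DCN stayed at or under 1.10 CPM. The summed level of 10 trophectoderm and amnion markers was 364 to 443 CPM in N2B27, 406 to 432 CPM in E8 and 425 to 471 CPM in mTeSR, beside 335 to 483 CPM in naive cells, with 1, 3, 2 and 4 of the 10 at or under the floor. TFAP2C, which naive cells also express, made up most of each sum, at 321 to 473 CPM in naive cells and between 283 and 455 CPM at day 8. Without it the sum was 80.9 to 100.02 CPM in N2B27, 17.8 to 24.3 CPM in E8 and 15.7 to 21.4 CPM in mTeSR, beside 9.96 to 18.6 CPM in naive cells. GATA3 stood at 39.4 and 33.96 CPM in N2B27, 10.3 and 14.8 CPM in E8 and 4.89 and 5.32 CPM in mTeSR, beside 0.683 to 4.94 CPM in naive cells. Of the 8 tested, 6, 3 and 2 were called higher than in naive cells in N2B27, E8 and mTeSR, and 0, 2 and 1 lower. CDX2 stood at 20.9 and 13.01 CPM in N2B27, 0.187 and 0 CPM in E8 and 2.71 and 2.52 CPM in mTeSR, and HAND1 at 20.3 and 15.4, 1.12 and 0.942 and 3.80 and 2.24 CPM. The part of any of these markers in the levels of the glycolytic genes was not tested.

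Within mTeSR, 8 genes were called higher at day 8 than at day 4 and 0 lower, where 6.46% of all genes were called higher and 2.79% lower. The rises were 2.94 for PFKFB4, 2.41 for PDK1, 2.14 for ENO2, 1.79 for LDHA, 1.56 for PGK1, 1.52 for ALDOC, 1.25 for PDK3 and 1.17 for GPI on the log2 scale. PGK1 went from 343 and 370.3 CPM to 1077 and 1034 CPM and LDHA from 359.5 and 476 CPM to 1467 and 1424 CPM, without overlap. In N2B27 of Ex1 from day 4 to day 8, 0 genes were called by edgeR or DESeq2, beside 7.5% of all genes called, 6 passed, beside 20.3% of all genes, and 10 had an unadjusted p under 0.05. The difference of these changes, mTeSR minus N2B27, was called above 0 for 9 genes and below 0 for 0, where 0.792% of all genes were called above 0 and 0.894% below. It was 3.63 for PFKFB4 (SE 0.45), 2.33 for PDK1 (SE 0.28), 1.69 for LDHA (SE 0.24) and 1.37 for PGK1 (SE 0.14). These values rest on the N2B27 libraries of Ex1 at day 4. From those of Ex2, 3 genes were called above 0 and 0 below, where 0.42% and 0.972% of all genes were: PFKFB4 (2.98), ALDOC (1.26) and PFKP (1.15). PGK1 (0.96) and GPI (0.82) then passed without being called, and PDK1 (0.88), LDHA (0.78), PDK3, ENO2 and HK2 did not pass. In N2B27 from day 4 of Ex2 to day 8 of Ex1, 4 genes were called higher, beside 9.37% of all genes: ENO2 (1.86), PDK1 (1.53), PCK2 (1.04) and LDHA (1.01). Day and experiment cannot be told apart in that exchange. The change from day 2 to day 8 gave 0 calls between E8 and N2B27 by either tool, beside 4.95% of all genes, and 7 genes had an unadjusted p under 0.05.

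Of the 8 genes called higher from day 4 to day 8 in mTeSR, 7 had a promoter window, and 6 of these held ACGTG on either strand, the exception being PFKFB4, which held GCGTG. The letters ACGTG stood in 14 of the 30 windows of the set (46.7%) and in 21.0% of all 14487 windows. In the 23 other windows of the set ACGTG stood in 8 (34.8%). GCGTG stood in 13 of the 30 windows and in 41.0% of all. Either of the 2 stood in all 7 windows of the genes called, in 12 of the 23 others (52.2%) and in 52.1% of all. The windows of the set were also richer in G and C, with a median of 70.0% against 63.6% over all, and the part of this in the matches was not tested. The LDHA window held 5 matches, 4 of them from 2 copies of CACGTG, which reads the same on both strands.

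Ex1 and Ex2 shared naive cells on Geltrex and N2B27 at day 4, and were compared on both. Among naive cells, 13 genes passed higher and 3 lower in Ex2, where 7.35% and 7.86% of all genes passed. ALDOC was called higher in Ex2, beside 2.33% of all genes (1.39, SE 0.20) and PFKFB3 lower, beside 2.34% (-1.07, SE 0.33). At day 4 in N2B27, 5 genes passed lower in Ex2 and 0 higher, where 2.09% of all genes passed lower and 0.618% were called lower. PDK1 stood at 16.9 and 18.1 CPM in Ex2 and 47.1 and 48.7 CPM in Ex1 (-1.45, SE 0.20, called). LDHA stood at 359 and 381 CPM against 678 and 714 CPM (-0.91) and ENO2 at 29.4 and 23.5 CPM against 44.7 and 53.03 CPM (-0.89). Within each experiment, the change of PDK1 from naive cells on Geltrex to day 4 in N2B27 was 1.46 in Ex1 and -0.68 in Ex2, and that of LDHA 0.62 and -1.08, all of which passed, as did 32.3% of all genes in Ex1 and 40.9% in Ex2. The difference of these changes was called for 7 genes, PFKP above 0 and 6 below, where 2.85% of all genes were called above 0 and 3.63% below. HK1, PFKFB3 and PFKP were called higher and ENO2 lower in each experiment, where 16.6% of all genes were called in Ex1 and 21.8% in Ex2.

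When E8 at day 4 was set against the N2B27 libraries of Ex2 in place of those of Ex1, 0 of the 4 genes called before were called by edgeR's quasi-likelihood test, where 1.3% of all genes were called, and 9 of the set had an unadjusted p under 0.05. PFKP (-0.64), ALDOC (-0.96) and DLAT (-0.45) passed lower in E8, beside 1.61% of all genes. PFKFB4 stood at 1.67 and 3.16 CPM in E8 and 7.03 and 6.18 CPM in N2B27 of Ex2, without overlap, and its log2 fold change of -1.43 (SE 0.42) did not pass. PDK1 at day 4 held 16.7 and 15.2 CPM in E8, 12.2 and 13.8 CPM in mTeSR and 16.9 and 18.1 CPM in N2B27 of Ex2, all below N2B27 of Ex1. Medium and experiment cannot be told apart in that exchange, and days 6 and 8 were sampled in Ex1 alone.

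**Figure D4:**
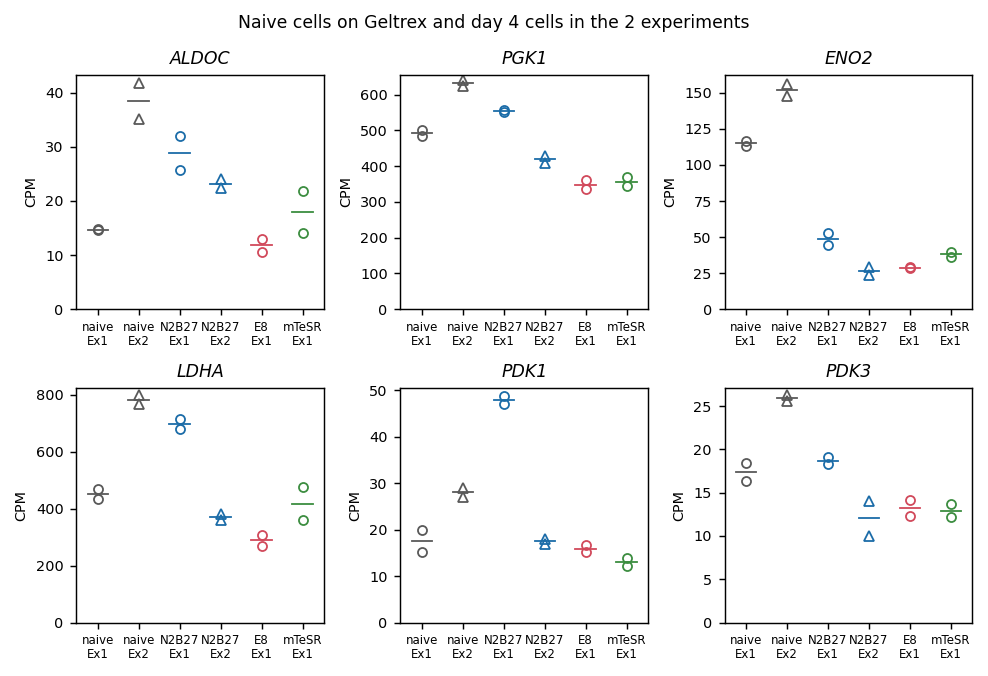
Level in CPM (vertical, linear axis from 0) of 6 genes in each library (circles Ex1, triangles Ex2) with the group mean as a bar, for naive cells on Geltrex and for day 4 in N2B27, E8 and mTeSR. In N2B27 the Ex1 libraries of PDK1 and LDHA lie above those of Ex2, E8 and mTeSR, while among naive cells those of Ex2 are the higher.

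Within Ex2, 0 of the 35 genes passed between XAV and N2B27 at day 4 by edgeR's quasi-likelihood test or DESeq2, where 0.57% of all genes were called and 1.34% passed, and 5 had an unadjusted p under 0.05. Between FAX and N2B27 0 passed by either tool, beside 0.336% of all genes called and 0.846% that passed, and 1 had an unadjusted p under 0.05. FAX and XAV differed in 0 genes by either tool as well, beside 0.012% of all genes that passed and were called, with 1 at an unadjusted p under 0.05. Geltrex against serum coating in naive cells of Ex1 gave 0 genes by edgeR and 2 that passed by DESeq2, beside 0.048% of all genes called and 0.174% passed by edgeR, and 5 had an unadjusted p under 0.05. The 95% interval of the log2 difference lay within 1 either way for 32 of the 35 genes in XAV, 31 in FAX and 30 between coatings. PDK2 and PC were outside in each of these, and were among the genes with the fewest counts.

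The shares of isozymes in the counts need no scaling between libraries. They are shares of 3′ tags, read as differences between libraries and not as amounts of enzyme. HK2 made up 82.5% ± 2.54 (SD, n = 6) of the counts of HK1 and HK2 in naive cells and 31.3% ± 2.94 (SD, n = 2) at day 8 in N2B27, 30.3% ± 2.07 in E8 and 30.1% ± 0.102 in mTeSR. PFKFB3 went from 14.1% ± 6.53 of the PFKFB counts to 57.99% ± 5.36, 63.9% ± 2.98 and 53.7% ± 2.08. Among the phosphofructokinases, the PFKP share went from 8.44% ± 2.98 to 20.5% ± 0.766, 22.7% ± 2.63 and 22.8% ± 1.46. In all 3 shares the day 8 libraries lay outside the naive range, and so did those of PFKM, ENO2 and PDK1. ENO2 went from 18.5% ± 1.75 of the enolase counts to 7.20% ± 0.260, 5.57% ± 1.44 and 9.23% ± 0.305. PDK1 went from 48.8% ± 3.76 of the kinase counts to 70.6% ± 0.439, 60.9% ± 1.78 and 67.3% ± 7.07. LDHB held 58.02% ± 12.998 of the lactate dehydrogenase counts in naive cells, and in mTeSR at day 8 32.8% ± 0.586, below the naive range, while N2B27 and E8 overlapped it. In an exact two-sided permutation test of 6 naive against 2 libraries the smallest p possible is 0.0357. Of the 27 comparisons 19 reached it, and none passed 0.05 after Benjamini-Hochberg adjustment over the 27 (0.0508 by the exact test). The ALDOC and ENO3 shares overlapped the naive range in all 3 media.

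**Figure D5:**
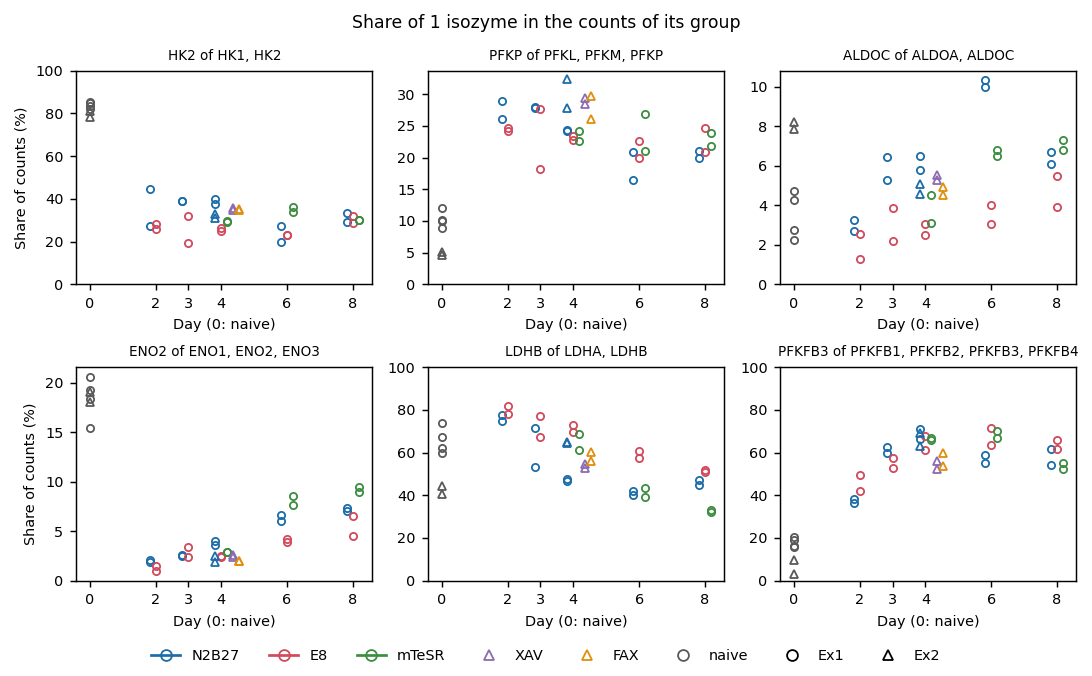
Share in percent (vertical) of an isozyme in the summed counts of its group in each library against the day (horizontal, 0 being naive cells; circles Ex1, triangles Ex2), coloured by medium. The HK2 and ENO2 shares are lower at day 8 than in naive cells, the PFKFB3 and PFKP shares are higher, and the LDHB share is lowest in mTeSR at day 8.

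Of 81 further genes of these pathways, 66 were tested. Of 11 glucose, lactate and pyruvate carriers tested, 5, 4 and 6 were called higher at day 8 in N2B27, E8 and mTeSR, and 0, 1 and 0 lower. Of all genes tested, 16.9%, 18.2% and 16.9% were called higher and 7.03%, 9.24% and 8.2% lower in the 3 media, and these shares are the background for the calls of the other lists at day 8 as well. SLC2A1, the widespread glucose carrier, went from 37.6 to 61.5 CPM in naive cells to 322 and 318 CPM in N2B27, 343 and 365 CPM in E8 and 413 and 429.5 CPM in mTeSR. SLC2A3, the high-affinity carrier, went from 227 to 266 CPM to 1604 and 1455 CPM, 979 and 1073 CPM and 1661 and 1734 CPM, though it may share reads with its near copy SLC2A14. SLC16A3, the lactate exporter, stood at 84.7 and 108 CPM in mTeSR at day 8 at 26.9 and 32.3 CPM in N2B27 and at 22.9 and 24.7 CPM in E8, against 6.86 to 19.1 CPM in naive cells. SLC2A12, a further glucose carrier, held 0 to 0.277 CPM in naive cells and between 1.09 and 4.50 CPM at day 8. In each of these 4 genes every library of day 8 lay above the naive libraries. The 4 were named for being called at day 8, which favours such a gap, and the share of all genes without overlap was not counted. SLC2A12 had 0 or 1 counts in the naive libraries and 4 to 24 at day 8.

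Of the 10 other enzymes of glycolysis and gluconeogenesis tested, 2 were called higher in each medium at day 8, and 1, 2 and 1 lower. PGM1, the phosphoglucomutase that leads to glycogen, rose from 5.53 to 17.4 CPM to between 103 and 266 CPM, and FBP1, the gluconeogenic bisphosphatase, went from 19.5 to 27.4 CPM in naive cells up to 75.8 and 73.8 CPM at day 2 in N2B27 and 72.9 and 81.4 CPM in E8, called higher (1.62 and 1.67 on the log2 scale), and fell to between 1.76 and 3.92 CPM at day 8. HKDC1, a hexokinase domain protein, held 0 to 0.342 CPM in naive cells and between 1.18 and 2.24 CPM at day 8. Of the 15 regulators, 6 were called higher and 0 lower in each medium. MYC went from 0.342 to 3.32 CPM to between 21.8 and 35.03 CPM, and EPAS1, the HIF-2 alpha subunit, from 0 to 0.541 CPM to between 2.89 and 8.24 CPM. TXNIP, which restrains glucose uptake, went from 7.53 to 35.2 CPM to 169 and 150.1 CPM in N2B27, 51.3 and 36.97 CPM in E8 and 122 and 113 CPM in mTeSR. EGLN1, an oxygen sensor and itself a hypoxia target, held 6.33 to 9.92 CPM in naive cells, and at day 8 16.96 and 17.3 CPM in N2B27, 25.7 and 17.4 CPM in E8 and 32.8 and 49.3 CPM in mTeSR. ESRRB, a nuclear receptor, held 0 to 0.898 CPM in naive cells and between 0.235 and 2.71 CPM at day 8. Of the 5 other pentose phosphate genes tested, 0, 1 and 1 were called higher in N2B27, E8 and mTeSR. Of the 20 citric acid cycle genes, 13 passed lower and 5 higher at day 8 in N2B27 and in mTeSR, and 12 lower and 4 higher in E8, where 20.4%, 20.7% and 23.1% of all genes passed lower in N2B27, mTeSR and E8 and 24.7%, 24.7% and 26.8% higher. The list had median log2 fold changes of -0.62, -0.49 and -0.53 in N2B27, mTeSR and E8. Beside the same shares of all genes, of the 5 other pyruvate dehydrogenase genes 4, 2 and 3 passed lower in N2B27, E8 and mTeSR and 0 were called, with 0 passing higher.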

How the data were processed

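The authors sequenced 38 QuantSeq 3′ libraries as single reads and processed them with nf-core/rnaseq. The submitters' notes name FastQC 0.11.9, STAR 2.7.10a, Salmon 1.9.0 and DESeq2, with reads on hg38. The annotation release and the strand setting are not given in the sources used here. The deposited table holds counts per gene, whole numbers with no normalization, for 57133 genes, and all its columns were used. Samples were grouped by medium, day, coating and experiment from their titles. These place the naive libraries of Ex2 at day 0, although the library names of the whole group carry day 4. The members and gene lists were chosen with earlier results of these data known.

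Counts were filtered with filterByExpr, which kept 16674 genes with 99.6% of all counts, scaled by TMM and fitted with edgeR 4.0.16 in R 4.3.3 by the quasi-likelihood test with Benjamini-Hochberg adjustment over all genes. Comparisons against naive cells used 16 combinations of medium and day, and the others used all 19 groups. The biological coefficient of variation was 10.0%. The fit was tested on simulated data. DESeq2 1.42.0, other scalings and filters, other naive libraries and left-out libraries were alternatives. The comparisons within each experiment, E8 and mTeSR against N2B27 libraries of the other experiment, and the library score and left-out libraries at days 2 and 3 were added after seeing the data, as was the change from day 4 to day 8 taken from the N2B27 libraries of Ex2.

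Values by library were given for genes called in at least 2 of the 3 day 8 comparisons against naive cells or in any comparison of media at 1 day, up to 14 by size, and for isozyme groups, and further pathway genes, up to 12, were named if called in at least 2 of the 3. Values of other members named beside them were chosen after they were seen. Shares of isozymes were tested by exact permutation over libraries. Gene positions are those of GENCODE 44 on GRCh38.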

Additional observations from a re-analysis of the deposited data

Results flagged for a closer look

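Among 28 sets of libraries checked, 14 genes in the 6 naive libraries and in the 4 libraries of N2B27 at day 4, 1 held a library far from the others, while chance gives such a case in about 1 of 20. DLAT stood at 122 CPM in naive serum replicate 1 of Ex1, the lowest of the 6 naive libraries, and still above every library at day 8.

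The change from day 4 to day 8 differed between mTeSR and N2B27 by the test of the difference itself (edgeR, adjusted p under 0.05). On the log2 scale, mTeSR minus N2B27, it was 3.63 for PFKFB4, 2.33 for PDK1, 1.69 for LDHA, 1.58 for ALDOC and 1.37 for PGK1. It was 1.25 for PDK3, 1.23 for GPI, 1.17 for ENO2 and 1.14 for HK2. From the N2B27 libraries of Ex2 at day 4, an alternative added after seeing the data, it was 2.98 for PFKFB4, 1.26 for ALDOC and 1.15 for PFKP, and the other 7 genes of this paragraph were not called.

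The change from naive cells on Geltrex to day 4 in N2B27 differed between the experiments by the same test. On the log2 scale, Ex2 minus Ex1, it was -2.13 for PDK1, -1.71 for ALDOC, -1.70 for LDHA, -1.29 for ENO2, -1.23 for PCK2, -1.21 for PDK3 and 1.02 for PFKP. The Ex1 libraries that enter both tests are those of N2B27 at day 4.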

How the results depend on the processing

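Of 1392 values of single genes under the alternatives, 1338 kept their direction and stayed called or not called, 14 came to be called, 16 were no longer called and 24 changed sign. The count of genes called at day 8 against naive cells was 11 in place of 7 in N2B27 with the naive libraries of the same experiment, and 11 in place of 7 in E8 with those on serum coating. E8 against N2B27 at day 4 gave 0 in place of 4 with the N2B27 libraries of the other experiment, an alternative added after seeing the data. So were those for E8 against N2B27 at days 2 and 3, where leaving out 1 library gave 2 to 11 and 2 to 10 genes that passed in place of 8 and 6, and a library score as covariate gave 7 and 10. The difference of the changes from day 4 to day 8, mTeSR minus N2B27, gave 3 calls in place of 9 from the N2B27 libraries of the other experiment, also added. Where 1 of 2 libraries was left out, the lone library was assumed to vary like the other groups. Leaving out 1 library gave 0 to 1 for E8 against N2B27 at day 8 (1 without N2B27 day 8 replicate 2) and 1 to 2 for mTeSR against N2B27 (2 without mTeSR day 8 replicate 1). The day 8 difference of the PFKM share then ran from 9.15 to 16.2 percentage points in E8 and 3.65 to 6.15 in mTeSR, and that of the PDK1 share from 13.6 to 23.6 in mTeSR. The cause of these moves was not tested.

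None of the 24 values that changed sign belonged to a gene called in that comparison. ALDOC in E8 at day 8 against naive cells became 0.73 with naive libraries of the same experiment, 1.15 with those on serum coating and 0.33 with the experiment as a covariate, and ran from -0.18 to 0.33 when 1 library was left out. GPI in N2B27 at day 8 against naive cells became 0.0340 and 0.0482 with the same 2 sets of naive libraries. With library totals in place of TMM, E8 against N2B27 at day 8 gave -0.0568 for PFKFB3 and -0.00100 for PFKM, and mTeSR against N2B27 gave -0.00352 for PFKM. With a library score as covariate, PFKFB3 was -0.0852 in E8 against N2B27 and PFKM 0.0237 in mTeSR against E8. With 1 library left out, E8 against N2B27 ran from -0.0262 to 0.0545 for PFKFB3, -0.34 to 0.37 for PFKM, -0.0821 to 0.30 for LDHA, -0.47 to 0.0180 for PDK2 and -0.54 to 0.16 for PFKFB4. PFKM then ran from -0.34 to 0.39 in mTeSR against E8 and -0.26 to 0.31 in mTeSR against N2B27, and DLAT from -0.10 to 0.00190 in mTeSR against N2B27 and -0.0346 to 0.0696 in mTeSR against E8.

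With the replicate number as a replicate block, 7, 7 and 13 genes were called at day 8 against naive cells in N2B27, E8 and mTeSR, as without it, and no other count changed. Over 171 pairs of groups, deviations of libraries with the same number correlated between -0.60 and 0.51 across 7137 genes, with a median of 0.00843 and 37 pairs over 0.1. Whether libraries with the same number were handled together in some groups cannot be told from this. The 95% intervals of PDK2 and PC, genes with few counts, reached past 1 on the log2 scale between XAV, FAX and N2B27, between coatings, between mTeSR and E8 at day 4 and between E8 and N2B27 at day 8. Among others, that of PDK1 did so between E8 and N2B27 at day 8 and that of ALDOC between mTeSR and E8 at day 4. The part of depth in this was not tested.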
